A study of Equus caballus with 4 samples.

Results

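The BCL2 family was examined in equine satellite cells (ESC), with 10 members listed: the survival members BCL2, BCL2L1, MCL1 and BCL2A1, and the death-promoting members BAX, BAK1, BCL2L11, BID, BIK and PMAIP1. Members were matched by the gene name that the array files give each probe. This found 6 of the 10 members, with 22 of the 43603 different probes of the array. The other 4 members (BAX, BAK1, BCL2L11 and BIK) stood in the files under another name, and 9 further probes were found through the files' gene description. Their values are given apart, since the gene names alone leave BID and PMAIP1 as the death-promoting members.

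ESC are the muscle stem cells that proliferate, differentiate and fuse into myofibers. The cells came from the m. semitendinosus of stallions aged 6 months and were studied at differentiation day 3. Cells of the HMB-treated group stood for 24 h in 50 µM HMB (β-hydroxy-β-methylbutyrate, a leucine metabolite), with 3 mM H2O2 in the final 1 h, and those of the control group received the same H2O2 and no HMB. On each of 4 arrays, Cy5-labeled cRNA of HMB-treated cells was hybridized with Cy3-labeled cRNA of control cells.

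Since H2O2 was given to both groups, the ratios show HMB against no HMB under H2O2, and no array held untreated cells. The dyes were not swapped, so treatment and dye cannot be told apart. All 4 arrays lay on 1 slide. The labels number the arrays as biological replicates, but the control carries number 1 throughout, and the methods kept the culture with the best viability and fusion. The spread between arrays may therefore leave out that between control samples and between horses.

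BCL2 proteins decide at the mitochondrial outer membrane whether a cell enters apoptosis. BAX and BAK1 form pores that release cytochrome c, the survival members bind and hold them back, and the BH3-only proteins BID, BCL2L11 (BIM), BIK and PMAIP1 (NOXA) sense stress and either block the survival members or activate BAX and BAK1. In muscle cells, oxidative stress and differentiation are settings in which this balance has been studied at length.

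The probes show how many separate measurements stand behind each member. The 10 BID probes all lay within chr6:27722084-27722499 of the EquCab1 horse genome, on the plus strand. Of these, 5 probes, each shifted by 1 base, belonged to the transcript ENSECAT00000006654, and 5 matching ones to ENSECAT00000006674, whose probes each span 412 bases of the genome. Any pair of BID probes shared an unbroken run of 51 to 59 bases. The pair below starts at the same base, and the capitals mark the 3 bases that differ between the transcripts (G56A, A57G and G58T, counted from 1 at the 5′ end, with the first transcript's base first).

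BID, ENSECAT00000006654: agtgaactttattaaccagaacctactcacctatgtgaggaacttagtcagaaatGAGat
BID, ENSECAT00000006674: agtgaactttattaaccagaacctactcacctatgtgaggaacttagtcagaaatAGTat

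The 5 PMAIP1 probes (chr8:70078113-70078176, plus strand) were also shifted by 1 base each. The first and the last are shown, with the run of 56 bases common to all 5 in capitals.

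PMAIP1, first probe: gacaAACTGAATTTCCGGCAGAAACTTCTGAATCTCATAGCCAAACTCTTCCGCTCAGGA
PMAIP1, last probe: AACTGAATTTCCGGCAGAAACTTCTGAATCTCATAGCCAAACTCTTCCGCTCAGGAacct

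By contrast, the 3 MCL1 probes (chrUn:79930531-79930650, minus strand) were spaced by 30 bases, so that neighbors overlapped by 30 bases and the outer pair read different sequence. BCL2L1 had 1 probe (chr22:22722990-22723049, minus strand). These 4 probes are all the survival probes that could be tested.

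MCL1, first probe: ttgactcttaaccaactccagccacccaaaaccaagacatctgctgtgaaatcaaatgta
MCL1, middle probe: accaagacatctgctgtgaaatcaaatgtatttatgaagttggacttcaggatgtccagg
MCL1, last probe: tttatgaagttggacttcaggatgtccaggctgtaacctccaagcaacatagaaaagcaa
BCL2L1: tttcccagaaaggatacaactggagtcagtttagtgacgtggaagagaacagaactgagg

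Values are log2 ratios of HMB-treated over control cells, turned from the log10 ratios deposited by the authors, in which background subtraction and lowess normalization within the array had been done. A probe was tested when 1 channel was well above background on all 4 arrays, and 24669 probes passed. A call needed an adjusted p (Benjamini-Hochberg, limma) of at most 0.05 together with an FC (fold change) of at least 1.3. Of the 22 probes found by gene name, 19 passed the filter, and 19 of these were called higher with HMB and 0 lower. They stood for 4 members (BCL2L1, MCL1, BID and PMAIP1). The BCL2L1 probe passed the filter through the HMB channel alone, which favors a higher ratio. When both channels had to be well above background, 18 probes of MCL1, BID and PMAIP1 were left and 18 were called higher, beside 11.2% of all probes tested in that way. Scaling to the spike-in RNA left 10 of them called, all of BID, and turned the median of the 5 PMAIP1 probes to -0.19. In that scaling, 3.99% of all tested probes were called higher and 78.2% lower, and their median was -0.67. With the deposited ratios, 12.1% of all tested probes were called higher and 16.4% lower, with a median log2 ratio of -0.07. The 19 probes are not 19 separate measurements, since the 10 of BID and the 5 of PMAIP1 each read nearly the same bases.

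**Figure D1:**
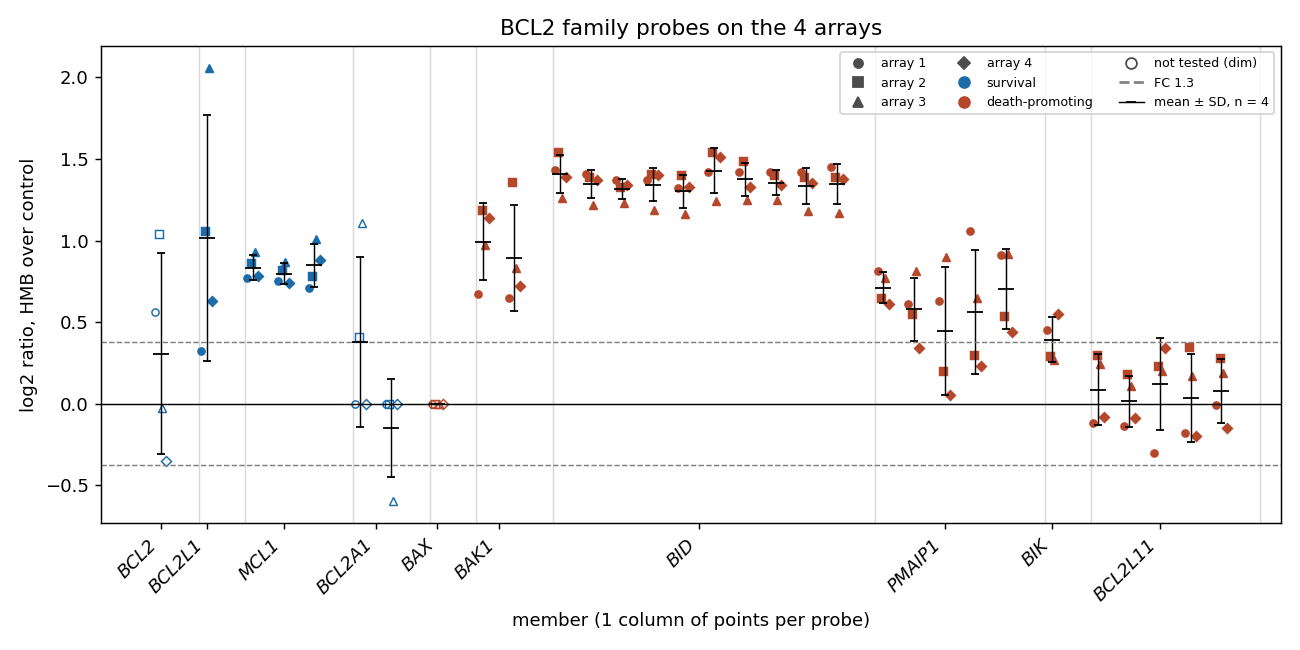
Log2 ratio of HMB-treated over control cells for all 31 BCL2 family probes, 1 column of 4 points (arrays) per probe, with mean ± SD; blue marks survival and red death-promoting members, open points probes that were not tested, and dashed lines an FC of 1.3. The 10 BID probes lie between 1.16 and 1.54, the 3 MCL1 probes between 0.71 and 1.01, and the BCL2L11 probes on both sides of 0; with the spike-in scaling, PMAIP1, BIK and BCL2L11 turn below 0, and the median of all tested probes is -0.67.

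Among the survival members, MCL1 was higher with HMB, while the ratios of BCL2L1 rested in part on control signals near background. MCL1 is a short-lived guardian that holds BAK1 in check. On its brightest probe, the log2 ratios on arrays 1 to 4 were 0.77, 0.86, 0.93 and 0.78, and the normalized signal was 2260, 2090, 2520 and 1900 in control cells against 3840, 3790, 4790 and 3260 in HMB-treated cells. Hence the HMB signal lay above the control signal on each array, and the groups did not overlap. The mean was 0.83 ± 0.08 (SD, n = 4), an FC of 1.78, with an adjusted p of 0.000185 in limma and a 95% confidence interval of 0.68 to 0.99. The other probes of MCL1 gave means of 0.80 and 0.85, and array 3 was the highest in each of the 3. MCL1 kept its direction in all alternatives, but with the spike-in scaling its value was 0.29, below an FC of 1.3.

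BCL2L1 encodes BCL-XL, which binds BAX, BAK1 and several BH3-only proteins. Its log2 ratios were 0.32, 1.06, 2.06 and 0.63, thus positive on each array but far apart. The HMB signal was nearly level, at 53.2, 43.3, 40.9 and 51.7, whereas the control signal was 42.5, 20.8, 9.84 and 33.3. The spread between arrays therefore came from the control channel, which was well above background on 2 arrays, namely those with the smaller ratios. The groups overlapped, as the control signal of array 1 exceeded the HMB signal of array 3. The mean was 1.02 ± 0.75 (SD, n = 4), with an adjusted p of 0.0215 in limma and a 95% confidence interval of 0.38 to 1.66. This call is weak, since the probe entered the test through the HMB channel alone and was not tested when both channels had to pass. Of 18 alternatives, 7 lost the call. These were treat, limma's test for an FC above 1.3 (adjusted p = 0.174), the methods' t-test (adjusted p = 0.138), no filter on dim probes (limma, adjusted p = 0.129), the data without replicate 2 (limma, adjusted p = 0.0642), the spike-in scaling (0.13), normexp with loess (0.18) and no background correction with loess (0.29). Without replicate 3, the mean was 0.67.

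BCL2 itself, the founding survival member, was not tested. Its single probe gave log2 ratios of 0.56, 1.04, -0.03 and -0.35, with 2 arrays on each side of 0. The control signal was well above background on 2 arrays and the HMB signal on 3, so no direction can be given. BCL2A1, a survival member induced by NF-κB, had 2 probes, and neither channel was well above background on any array. Its signals ran from 3.65 to 11.1. In 5 of its 8 readings the deposited ratio was exactly 0.

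**Figure D2:**
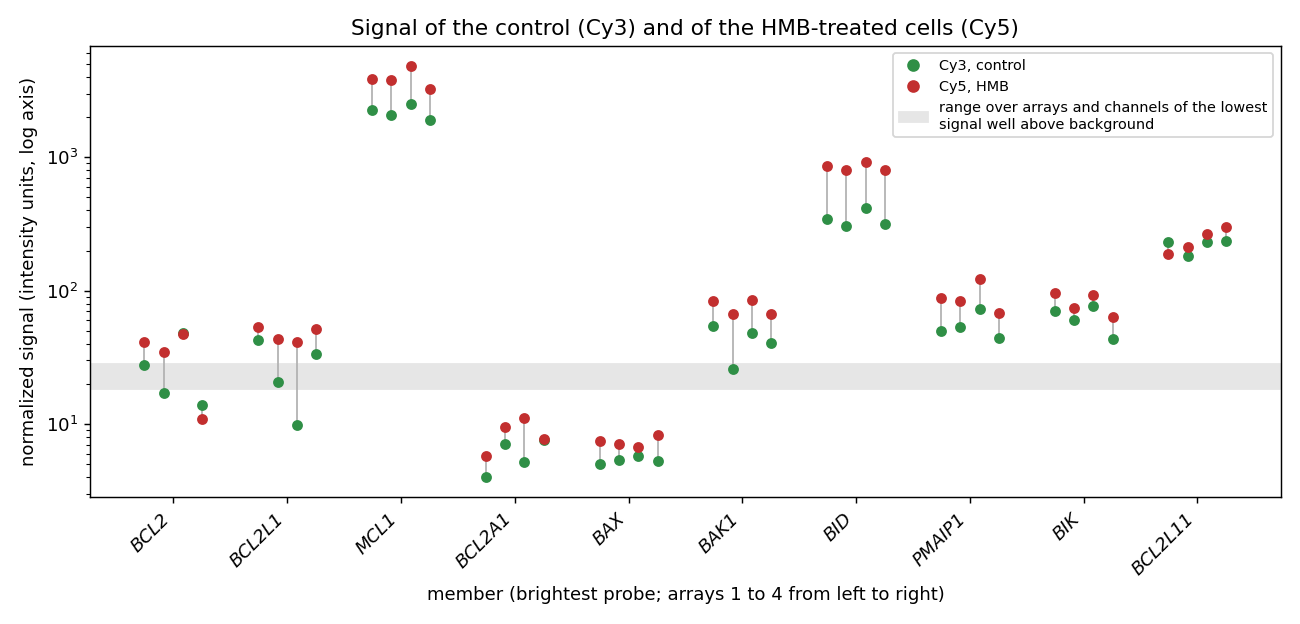
Normalized signal (log axis) of the brightest probe of each member in control cells (Cy3, green) and HMB-treated cells (Cy5, red), with arrays 1 to 4 from left to right and gray lines joining the channels of 1 array; the gray band spans the lowest signals counted as well above background, 18.3 to 28.1 over arrays and channels. For BID and MCL1 the red points lie above the green on all 4 arrays and far above the band, whereas BCL2A1 and BAX lie below it; signals of different probes are not comparable with each other.

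Of the death-promoting members, BID changed the most. BID links death receptors to mitochondria, since caspase 8 cuts it into its active form. On its brightest probe, the log2 ratios were 1.32, 1.40, 1.16 and 1.33. The signal was 346, 305, 416 and 316 in control cells and 864, 803, 928 and 797 in HMB-treated cells, again without overlap. The mean was 1.3 ± 0.10 (SD, n = 4), an FC of 2.47, with an adjusted p of 3.91e-05 in limma. Over its 10 probes, means ran from 1.3 to 1.43, and array 3 gave the lowest value in each. The 2 probes printed above gave nearly the same ratios, as the mean on that of ENSECAT00000006674 was 1.35 ± 0.12 (SD, n = 4). These probes differ in only 3 bases, so their ratios may not tell the 2 transcripts apart. BID was called in all alternatives, with values between 0.72 and 1.46.

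PMAIP1 is a BH3-only protein that binds MCL1. On its brightest probe, log2 ratios of 0.81, 0.65, 0.77 and 0.61 gave a mean of 0.71 ± 0.09 (SD, n = 4), with an adjusted p of 0.000418 in limma. The signal was 50.0, 53.8, 72.4 and 44.5 in control cells and 87.7, 84.4, 123 and 68.1 with HMB. The groups overlapped across arrays, although HMB was higher within each array. The probes of this near-identical sequence differed more than those of BID, with means from 0.45 to 0.71 and single values from 0.05 to 1.06. In all 5, arrays 1 and 3 stood above arrays 2 and 4. The adjusted p was 0.0459 on the least clear probe, and treat kept 1 of the 5. The brightest probe was no longer called with normexp (0.29), without background correction (0.36) or with the spike-in scaling (-0.01).

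The members found by description added 8 tested probes, of which 3 were called higher and 0 lower. Over all tested probes, 12.1% were called higher and 16.4% lower. The 8 probes stood for 3 genes and are not separate measurements, since those of BAK1 and of BCL2L11 overlap. BAK1, the pore-forming partner of BAX, had 2 probes that shared 58 bases. On the brighter one, log2 ratios of 0.65, 1.36, 0.83 and 0.72 gave a mean of 0.89 ± 0.32 (SD, n = 4), with an adjusted p of 0.00218 in limma. The signal was 53.9, 26.1, 47.8 and 40.8 in control cells and 84.3, 67.2, 85.2 and 67.2 with HMB, without overlap. The control signal on array 2, which gave the largest ratio, was 26.1 and not well above background, so this probe also passed the filter through the HMB channel alone. The other probe, which passed in both channels, gave 0.67, 1.19, 0.97 and 1.14. Both calls were lost with normexp and with the spike-in scaling, where the median of the probes was 0.29 and 0.17, and that of the brighter probe without background correction (0.38). BAX, the other pore-former, had 1 probe at which neither channel was well above background on any array, and the deposited ratio was 0 on each.

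BIK, a BH3-only protein of the endoplasmic reticulum, had log2 ratios of 0.45, 0.29, 0.27 and 0.55. Its signal was 69.9, 60.7, 77.3 and 43.2 in control cells and 95.9, 74.1, 93.1 and 63.4 with HMB, so that the groups overlapped while each array was higher with HMB. The mean of 0.39 ± 0.14 (SD, n = 4) corresponds to an FC of 1.31, just past the threshold, with an adjusted p of 0.00669 in limma. With the spike-in scaling it was -0.33. It fell short of the FC threshold without replicate 1 or replicate 4 (0.37 and 0.34), with normexp (0.19), without background correction (0.24) and with the GC correction (0.35), and treat did not call it.

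BCL2L11, a strong activator of BAX and BAK1, was the tested member that was not called. Its 5 probes shared 56 to 59 bases and had means from 0.01 to 0.12, with adjusted p between 0.417 and 0.889 in limma. On the brightest, ratios were -0.30, 0.23, 0.20 and 0.34, and the 95% confidence interval of -0.15 to 0.39 takes in an FC of 1.3. The intervals of the other probes ended between 0.20 and 0.31, short of an FC of 1.3. Array 1 was below 0 and arrays 2 and 3 above 0 on each of the 5 probes. Array 4 was above 0 on the brightest probe only, and between -0.20 and -0.08 on the others. With the spike-in scaling the brightest probe turned to -0.49 and was called lower.

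Counted by genes, with each gene given by its brightest tested probe, 6 of the 7 tested members were called higher and 0 lower. Among all 8584 tested genes, 10.3% were called higher and 17.2% lower, with a median of -0.09. Without the probes that passed through the HMB channel alone, 5 of 6 tested members were called higher, with BAK1 on its other probe. The order of the tested members by mean was BID (1.3), BAK1 (0.89), MCL1 (0.83), PMAIP1 (0.71), BIK (0.39) and BCL2L11 (0.12). BCL2L1 (1.02) has no firm place in this order, since its control signal was not well above background on 2 arrays and its SD was 0.75. The values of BAK1 overlapped over the arrays with those of BID, MCL1 and PMAIP1, although BID was above BAK1 within each array. Those of MCL1 and PMAIP1 overlapped as well, as did those of BIK and BCL2L11. BIK, with 0.27 to 0.55, lay below the brightest probe of PMAIP1, but it overlapped with the mean over the 5 PMAIP1 probes, which was 0.80, 0.45, 0.81 and 0.34.

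The comparison of survival with death-promoting members used the median log2 ratio over all tested probes of each side, on each array. By gene name, the survival median was 0.73, 0.84, 0.97 and 0.76 (4 probes) and the death-promoting median 1.37, 1.39, 1.18 and 1.34 (15 probes). The survival side was lower on each array, by a mean difference of -0.49 ± 0.19 (SD, n = 4). This difference rested on BID, which held 10 of the 15 probes. When BID was left out (chosen after seeing the data), the difference was -0.08, 0.30, 0.16 and 0.42, a mean of 0.20 ± 0.21 (SD, n = 4).

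With the probes found by description added, the difference was -0.18, -0.35, 0.05 and 0.04, thus 2 arrays on each side of 0. When each gene counted once, it was -0.57, 0.00, 0.48 and -0.14 by gene name, with a mean of -0.06 ± 0.43 (SD, n = 4). With both changes it was -0.12, 0.49, 0.69 and 0.16, a mean of 0.30 ± 0.36 (SD, n = 4), so the direction was reversed. No p is given, as members are not replicates. In the deposited ratios BID was above MCL1 on each array, which the way of counting cannot alter.

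**Figure D3:**
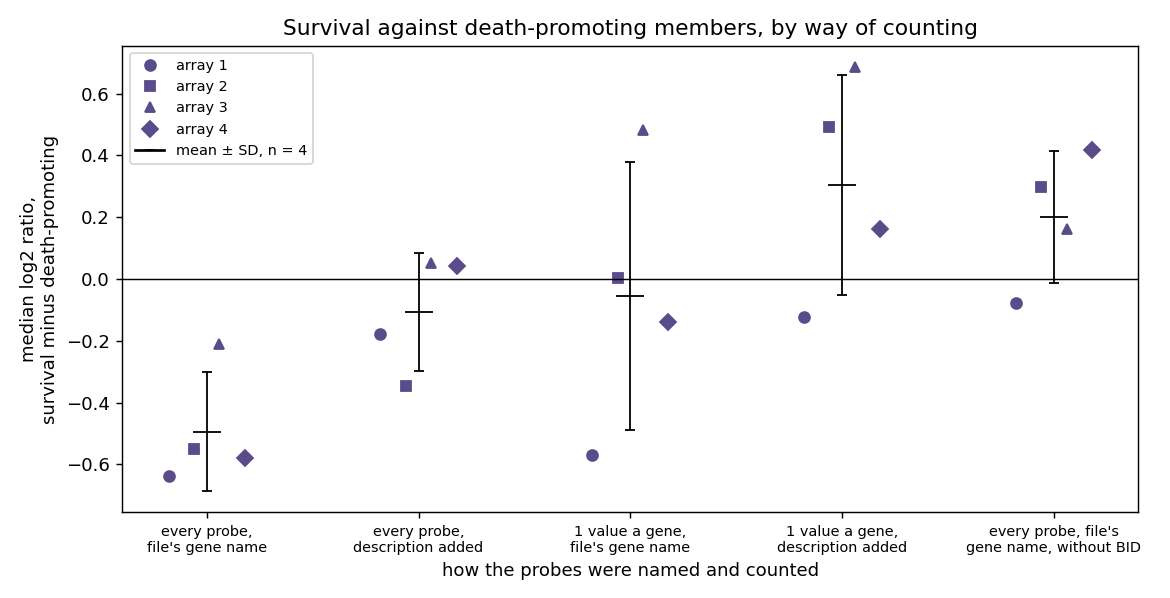
Median log2 ratio of survival minus death-promoting members on each of the 4 arrays (points) with mean ± SD, for 5 ways of naming and counting the probes. With every probe found by gene name, all 4 arrays lie below 0 (mean -0.49); with 1 value per gene and the description added, 3 of 4 lie above 0 (mean 0.30), and without BID likewise (mean 0.20). With 1 value per gene, the survival side holds only MCL1 and BCL2L1, and BCL2L1 passed the filter through the HMB channel alone.

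The scaling of the arrays moved the members by unequal amounts. With the spike-in RNA, for which lowess was left out as well, the median of all tested probes moved from -0.07 to -0.67. Relative to the median of all tested probes, the medians over the probes of BID (1.41 before and 1.43 after), MCL1 (0.90 and 0.94) and BCL2L11 (0.15 and 0.13) hardly moved. Those of BCL2L1 (1.09 and 0.81), BAK1 (1.01 and 0.84), PMAIP1 (0.65 and 0.49) and BIK (0.46 and 0.34) became smaller. Centering on the median without lowess gave the same relative values, as both scalings differ by a constant for each array. With normexp and loess in place of the deposited correction and normalization, BCL2L1 went from 1.02 to 0.18, BAK1 from 0.94 to 0.29, PMAIP1 from 0.58 to 0.20 and BID from 1.35 to 1.07, whereas MCL1 went from 0.83 to 0.81 (medians over probes). The parts of the background correction and of loess in these moves were not separated.

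**Figure D4:**
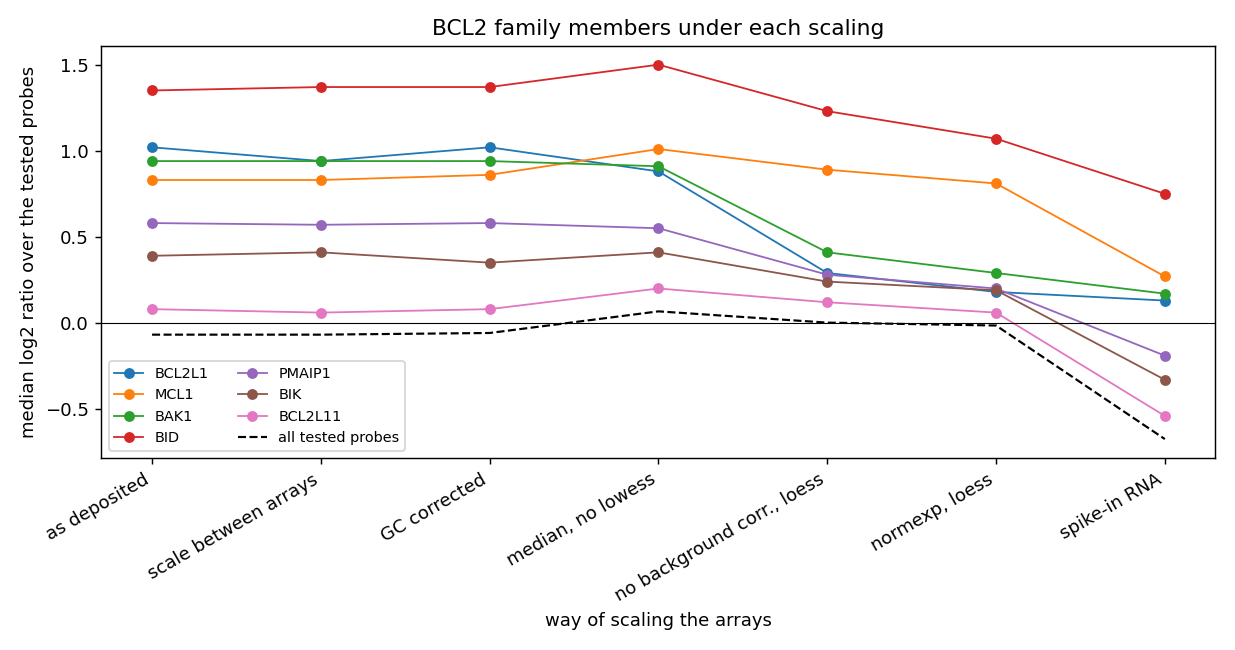
Median log2 ratio over the tested probes of each member under 7 ways of scaling the arrays (x axis), with lines joining the values of 1 member and the dashed line giving all tested probes. BID, MCL1, BCL2L1 and BAK1 stay above 0 in all 7, although BCL2L1 falls to 0.13 and BAK1 to 0.17 with the spike-in RNA. BCL2L1, BAK1, PMAIP1 and BIK shrink with normexp, and PMAIP1, BIK and BCL2L11 lie below 0 with the spike-in RNA.

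Around the family, 6 lists of apoptosis genes held 46 genes, of which 40 were tested, 4 called higher and 5 lower. This share of 22.5% stood beside 27.5% of all tested genes, and the median of the lists was -0.08. Of all tested genes, 10.3% were higher and 17.2% lower, and each list count below stands beside these shares. With the spike-in scaling, 4 were higher and 31 were lower, where 78.2% of all tested probes were lower. The lists are given by role.

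In the death receptor route to BID, 2 of 3 tested genes were higher and 0 lower. CASP8, the protease that activates BID, had log2 ratios of 1.68, 1.05, 1.5 and 1.23, a mean of 1.37 ± 0.28 (SD, n = 4), with an adjusted p of 0.000253 in limma. CASP10, its close relative, gave 1.73 ± 0.27 (SD, n = 4) on its brightest probe, but -0.12 on the other. The brightest CASP10 probe passed the filter through the HMB channel alone, as its control signal was well above background on 3 arrays, and 3 list genes in place of 4 were called higher when both channels had to pass. Both genes gave smaller values with normexp (0.70 for CASP8 and 0.60 for CASP10), with the spike-in scaling (0.72 and 1.01) and without background correction (0.92 and 0.88). They were called in each. The adaptor FADD gave 0.06 and was not called, and FAS and CFLAR were not tested.

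Downstream of the mitochondria, 0 of 10 genes were called higher and 1 lower. CYCS, the cytochrome c that the pores release, was lower, with a mean of -0.67 ± 0.22 (SD, n = 4). It was not called when the arrays were centered on the median without lowess (-0.35). CASP9, the initiator caspase that cytochrome c and APAF1 activate, gave -0.03 and was not called. APAF1 gave 0.36 on its brightest probe, just short of the FC threshold, and 0.39 on the other, which was called higher. On the falling side, the brightest probes of AIFM1 (-0.33) and VDAC3 (-0.35) were also just short of it. For AIFM1, 4 of its 8 probes were called lower.

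Of the 5 inhibitors of apoptosis, BIRC3 was higher and none was lower. BIRC3, an NF-κB target that ubiquitinates components of death receptor complexes, had log2 ratios of 4.07, 4.20, 4.14 and 3.52, an FC of 15.8 with an adjusted p of 4.28e-06 in limma. XIAP, which binds active caspases, gave a mean of 0.28 and was not called.

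Among other genes of the family, 1 of 7 tested BH3-only and BNIP genes was higher, and 1 of 4 multidomain genes lower. Over all tested genes, 10.3% were higher and 17.2% lower. BNIP3, a mitochondrial protein of mitophagy, had a mean of 0.98 ± 0.10 (SD, n = 4), and of 0.49 with the spike-in scaling. BBC3 (PUMA) gave -0.31 and BAD 0.08, and neither was called. BOK, a relative of BAX and BAK1, gave -0.71, -0.80, -0.51 and -0.08, a mean of -0.53 with an adjusted p of 0.0149 in limma. It was not called with normexp (-0.30).

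Of 11 genes of partners and turnover, 3 were lower and 0 higher. This share of 27.3% called stood beside 27.5% of all tested genes, with 17.2% lower and 10.3% higher. BAG2, a co-chaperone of HSP70, had log2 ratios of -1.01, -1.22, -1.03 and -0.91, with a mean of -0.63 under normexp. BAG1, a binding partner of BCL2, had a mean of -0.50, and USP9X, which removes ubiquitin from MCL1, had a mean of -0.52 on its brightest probe and -0.27 on the other, which was not called. Neither BAG1 nor USP9X was called when the arrays were centered without lowess (-0.30 and -0.32). FBXW7, a subunit of a ubiquitin ligase of MCL1, gave -0.37 and was not called.

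**Figure D5:**
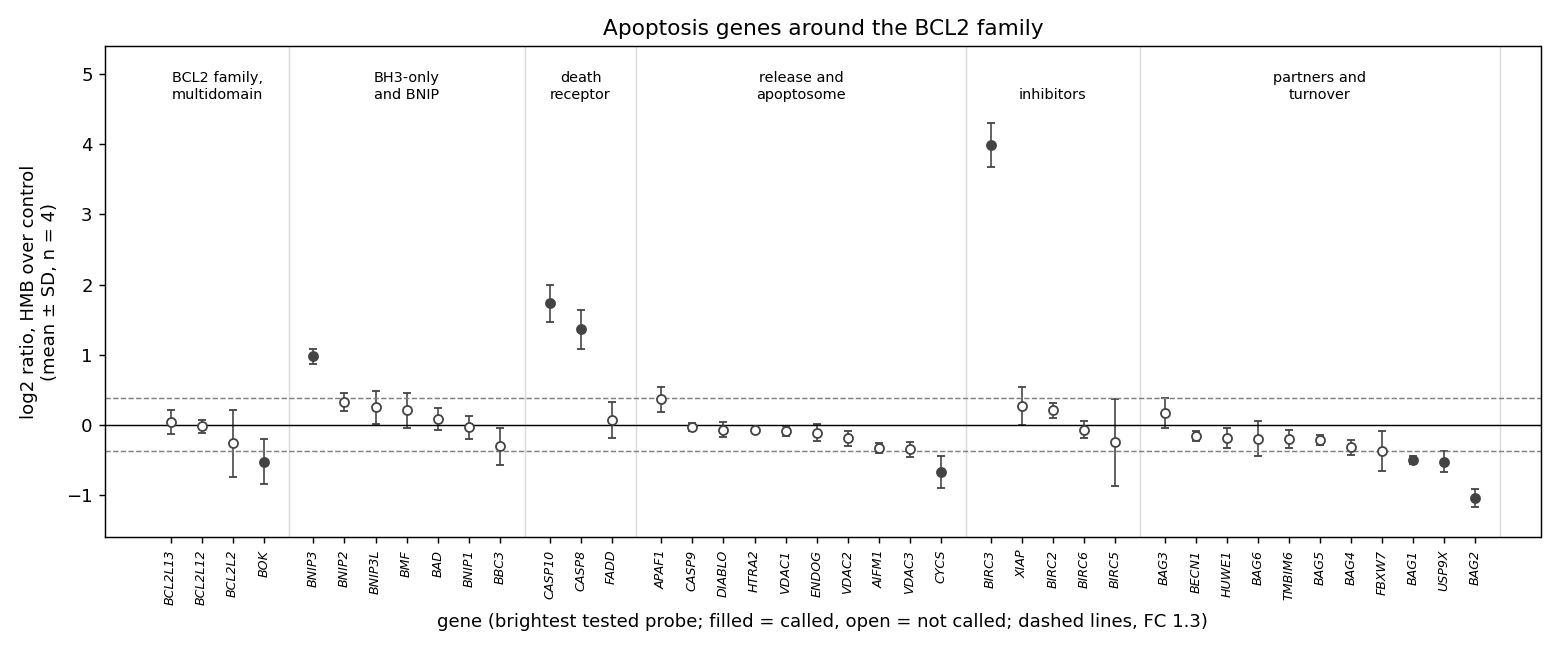
Mean log2 ratio ± SD (n = 4) of the 40 tested genes of 6 apoptosis lists, with filled points for called and open points for genes not called, and dashed lines at an FC of 1.3. BIRC3 (3.98), CASP10 (1.73), CASP8 (1.37) and BNIP3 (0.98) stand above the rest, and BAG2 (-1.04) lies lowest; with the spike-in scaling, 31 of the 40 were called lower, as were 78.2% of all tested probes.

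The 3 genes whose 4 ratios were most like those of BID, by the root mean square difference on the log2 scale among 8583 genes, were NAMPT (0.0838), CBLN4 (0.0929) and GSAP (0.101). NAMPT, an enzyme of NAD salvage, gave 1.37, 1.44, 1.24 and 1.2. The nearest to BCL2L1 were XDH (0.308), C1RL (0.343) and VEGFA (0.354). XDH, xanthine dehydrogenase, gave 0.50, 1.09, 1.52 and 0.87. Being highest on array 3, as BCL2L1 was, follows largely from the choice by nearness. The BCL2L1 ratio on that array rested on a control signal of 9.84, which was not well above background.

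The labelled cell type was checked against marker genes. Of 10 muscle markers, 9 were well above background in both channels on all 4 arrays, and PAX7, the marker of quiescent satellite cells, was not on any. Of the 9, 7 were lower with HMB and 0 higher (median -1.10), where 17.2% of all tested genes were lower and 10.3% higher. The 2 not called were the regulators MYOD1 (0.32) and MYOG (0.03). The summed signal of the muscle markers was 169000 to 190000 in control and 64500 to 103000 in HMB-treated cells. Most of this control sum was the signal of MYH3 (80400 to 88900) and ACTA1 (61000 to 69600). Of 6 fibroblast markers, 4 were higher and 0 lower, with sums of 311000 to 382000 and 306000 to 474000. Most of the control sum was the signal of COL1A2 (219000 to 281000), which was not called. Of 7 leukocyte markers, 4 were tested and 3 were higher, among them PTPRC (0.51 on its brightest probe, with 6 of 15 probes tested), with sums of 16500 to 20900 and 20200 to 31900, while ITGAM and CD3E were not well above background on any array. None of the 5 endothelial markers could be tested, and PECAM1, CDH5, VWF and KDR were not well above background on any array. With the spike-in scaling, 8 of the 9 muscle markers were lower, where 78.2% of all tested probes were lower. In that scaling, 2 of 6 fibroblast and 0 of 4 leukocyte markers were higher, beside 3.99% of all tested probes. The leukocyte median was -0.05. The part of these shifts in the BCL2 family ratios was not tested. In RNA from whole cultures, fewer cells of a type and less RNA per cell cannot be told apart.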

How the data were processed

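Horse 2-color Agilent arrays with 60-base probes were used, 4 arrays of HMB-treated (Cy5) against control (Cy3) cells. The intensity values in the deposited files are the authors' scanner readings before and after background subtraction, and after linear and lowess dye normalization within the array. Each spot carries a deposited log10 ratio of Cy5 over Cy3, written by Feature Extraction 10.10.1.1 as the file headers give it. The authors' normalized table repeats these ratios. A change of base turned the deposited log10 ratios into the log2 values used here. A surrogate stood in for signals not above background, and such ratios can be exactly 0, whereas dim signals without one kept their value, so that a small control signal can give a large ratio. Saturated non-control spots numbered 0 on each array.

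The tests ran in limma 3.58.1 under R 4.3.3: intercept, empirical Bayes, Benjamini-Hochberg over 24669 probes. Controls and marked spots (non-uniform or outlier, 13 to 35 per array) were left out, spots of 1 probe averaged, and a ratio asked for on at least 3 arrays. Between 55.2% and 61.8% of the spots were well above background per channel, and the number of arrays limits the precision. Across probes, which are not independent replicates, array pairs had a Pearson's r of 0.837 to 0.920. On simulated data with 200 changed probes, limma recovered 35.8% at an FC of 1.5, 79.1% at 2 and 97.0% at 4, with 7 false calls. These rates may not hold for the real data, in which 28.6% of the tested probes were called, a far larger share than was changed in the simulation.

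Genes were named by the files, with 2426 probes renamed through a LOC identifier and 231 through a synonym in the RefSeq table (names only, another assembly). Named genes are all members, per list up to 3 called rises and falls with 1 sign on all arrays, and the 3 nearest patterns of the most changed survival and death-promoting member; other list and marker genes named were chosen after their values were seen. The members and lists were chosen with earlier results of these data known. Some apoptosis list genes are not reported here, and the counts were made without them. The alternatives were treat, the methods' t-test, trend and robust moderation, normexp or no background correction with loess, median centering, spike-in scaling, scale normalization, GC correction, the authors' table, other filters on dim or marked spots, gene means, naming by description, and each replicate left out. Spike-in scaling set the median over 10 spike-in transcripts to 0. Other data of the study were not analysed here.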

Additional observations from a re-analysis of the deposited data

How the results depend on the processing

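Among the alternatives, the count of called BCL2 family probes was 13 (all of BID and MCL1) with normexp and without background correction, 14 with treat, 10 with the spike-in scaling, 4 (of 4 genes) with the mean over the probes of a gene, and 6 (of 7 genes) when the description was added as well, a choice made after seeing the data. It was 17 to 19 with each replicate left out. The survival minus death-promoting difference was -0.28 with normexp, -0.056 with gene means and -0.11 with the description added. It was reversed to 0.30 with both of the last, and to 0.20 without BID, again chosen after seeing the data. With each replicate left out, it was -0.59 to -0.45. The apoptosis list genes called (9 of 40) were 5 with treat, 35 with the spike-in scaling, and 8 to 12 with each replicate left out. The spike-in scaling reversed BCL2L11 (-0.49), BIK (-0.33) and PMAIP1 (-0.0070). The cause of these changes was not tested. Of all called probes, 42.5% were higher, against 54.6% with treat, 55.0% with normexp, 60.1% without background correction, 63.2% with median centering and 4.86% with the spike-in scaling, and the number called was 2822 with treat, 3539 with normexp, 4440 without background correction and 20262 with the spike-in scaling, against 7046. Depth limits BCL2, BCL2A1 and BAX, whose signals were at or near background, and BCL2L1, whose control signal was so on 2 arrays. The ratio on each array already pairs HMB-treated with control cells. Beyond this, no paired analysis was possible because the ratios form 1 group.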
